A study of Mus musculus with 5 samples.

Results

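Transcripts of the bone morphogenetic protein (BMP) axis of pulmonary hypertension were followed in lung endothelial cell isolates through 10 genes chosen by name: the receptors Bmpr2 and Acvrl1 (ALK1), the co-receptor Eng (endoglin), the signal carriers Smad1, Smad5 and Smad9, the inhibitor Smad6, and the targets Id1, Id2 and Id3. All 10 were found among the 49315 genes of the count table, 1 row each, and all 10 were among the 18727 genes with enough counts to be tested. In the TET2KO group the cells came from mice with a knockout of TET2 restricted to endothelium (2 libraries). In the WT group they came from wild-type mice (3 libraries). Both groups had received angiotensin II, a vasoconstrictor peptide, by infusion for 28 days, so no mice without the hormone were compared. TET2 belongs to the enzymes that oxidise methylated cytosine, the first step of its removal from DNA. The Cre driver, the deleted exons, the strain, sex and age of the mice, the way the cells were isolated and any pooling of animals are not given in the sources used here. Nothing stated that libraries came from separate animals, so the p-values rest on a spread between libraries that may be technical.

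BMP ligands bind a complex of type 1 and type 2 receptor kinases. The type 2 receptor phosphorylates the type 1 receptor, which phosphorylates Smad1, Smad5 and Smad9, and these enter the nucleus with Smad4 to switch on genes such as Id1. In endothelium the pair of BMPR2 and ALK1, helped by endoglin, responds to the circulating ligands BMP9 and BMP10. Loss-of-function mutations of human BMPR2 are the main known cause of heritable pulmonary arterial hypertension, and mutations of human ACVRL1 and ENG cause hereditary haemorrhagic telangiectasia.

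Total counts per library ranged from 30035235 to 31239463 in TET2KO and from 27346804 to 35440257 in WT. Tet2, the targeted gene, counted over its whole length, stood at 139 and 162 CPM (counts relative to library size, TMM-scaled) in the TET2KO libraries, against 141, 174 and 131 CPM in the WT libraries. The groups overlapped, and a whole-gene count checks no label where the deleted exons are unknown. All 20 endothelial marker genes were detected, and their summed level was 9461 and 9961 CPM of library totals in TET2KO, against 5162, 3568 and 6964 CPM in WT. Among them Cdh5, a junction gene, stood at 1256 and 1163 CPM in TET2KO, against 628, 484 and 952 CPM in WT, and Pecam1 at 979 and 998 CPM in TET2KO, against 647, 415 and 806 CPM in WT. The isolates also held transcripts of other cells, with all listed markers in the table detected. The 13 macrophage and monocyte markers summed to 5376 and 9908 CPM in TET2KO, against 3498 to 32181 CPM in WT, with the top value in WT replicate 2; Lyz2, one of them, was at 2844 and 4625 CPM in TET2KO, against 5259, 18223 and 1762 CPM in WT. Ptprc, the leukocyte gene for CD45, was at 1205 and 1163 CPM in TET2KO, against 1513, 1206 and 1398 CPM in WT. WT replicate 2 also stood apart on the first principal component (57.5% of the variance), at 90.8, against -50.9 to 7.71 for the others. B cell markers summed to 2844 to 4505 CPM in TET2KO, against 1297 to 6416 CPM in WT, and T and NK cell markers to 505 to 567 CPM in TET2KO, against 348 to 680 CPM in WT. Sums were 148 to 152 CPM in TET2KO, against 108 to 210 CPM in WT, for neutrophils and 129 to 137 CPM in TET2KO, against 54.9 to 148 CPM in WT, for fibroblasts. Markers of pericytes and smooth muscle summed to at most 27.1 CPM in TET2KO and 27.1 CPM in WT. The epithelial sums were 739 to 853 CPM in TET2KO, against 323 to 482 CPM in WT, for alveolar type 1 cells, and 891 to 1226 CPM in TET2KO, against 462 to 1189 CPM in WT, for alveolar type 2 cells. Airway markers summed to 586 to 1438 CPM in TET2KO, against 355 to 589 CPM in WT, and mesothelial markers to 98.0 to 255 CPM in TET2KO, against 57.9 to 355 CPM in WT. Apart from the endothelial list, the part these cells played in the results was not tested.

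The authors' deposited comparison table did not follow the genotype labels. Its log2 fold changes lay within 0.05 of the ratio of mean normalized signal in both TET2KO libraries and WT replicate 3 over WT replicates 1 and 2 for 18018 of the 18018 genes where that ratio was finite. The ratio of the TET2KO libraries over all 3 WT libraries came that close for 13.9% of genes. For Id2 the log2 fold change in the authors' deposited table was -0.49, against -0.17 for the labelled ratio and -0.49 for the ratio with WT replicate 3 on the TET2KO side. In that table Eng (log2 fold change 0.93, adjusted p = 0.0203) and Smad6 (1.03, adjusted p = 0.0212) passed the threshold, as 1.45% of its genes with an adjusted p did on the higher side. For the other receptors the authors' deposited table gave adjusted p-values of 0.0557 (Bmpr2, log2 fold change 0.84) and 0.0831 (Acvrl1, 0.75), and for Id1 it gave 0.309 (0.64). Samples are grouped below by their labels, and the values of the 10 genes are also given without WT replicate 3 and without WT replicate 2.

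**Figure D1:**
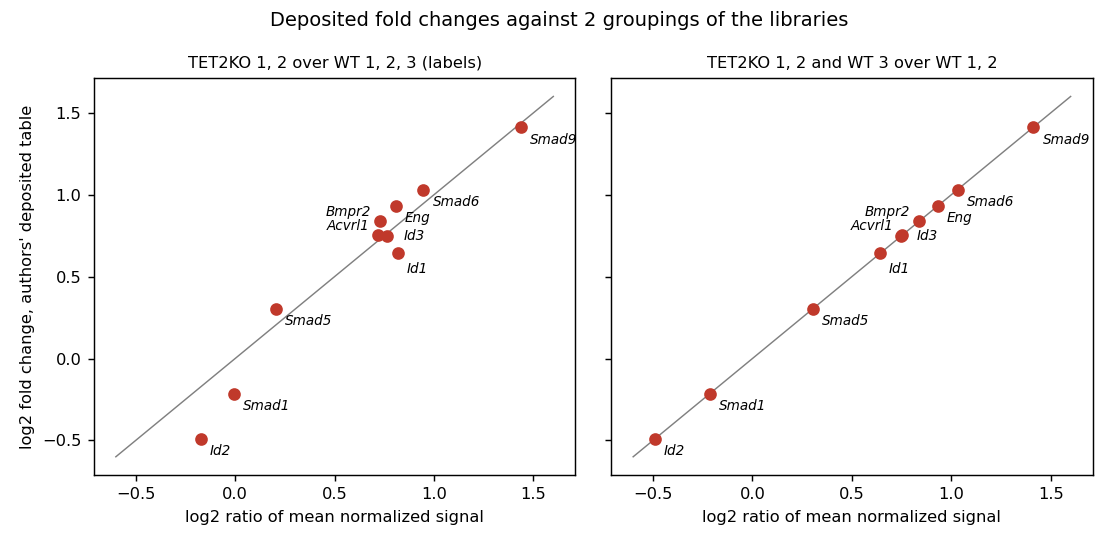
The log2 fold change of each of the 10 genes in the authors' deposited table (vertical axis) is plotted against the log2 ratio of mean normalized signal (horizontal axis) for the labelled groups on the left and for TET2KO with WT replicate 3 over WT replicates 1 and 2 on the right. The line marks equal values. The 10 points lie on it in the right panel, while Id2 lies at -0.17 against -0.49 and Smad1 at -0.01 against -0.21 in the left one.

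In the labelled comparison, 8 of the 10 genes had a log2 fold change (TET2KO over WT) above 0, and their median was 0.73, against a median of -0.08 over all 18727 genes tested, of which 41.6% were above 0. Scaled on endothelial genes instead of by TMM, 3 of the 10 were above 0, as described further on. For 7 of them, Bmpr2, Acvrl1, Eng, Smad6, Smad9, Id1 and Id3, each TET2KO library exceeded every WT library, which was so for 12.4% of all genes tested. Under Benjamini-Hochberg adjustment the quasi-likelihood test of edgeR called 0 of the 10 and 0% of all genes. The same 7 genes had an unadjusted edgeR p under 0.05, where 5.19% of all genes had one with the higher level in TET2KO and 0.502% with the lower. With TET2KO replicate 1 left out, the median log2 fold change of the 10 was 0.77, and with TET2KO replicate 2 left out it was 0.62. With WT replicate 1 left out, 4 of the 10 had an unadjusted edgeR p under 0.05, as had 696 of the 18335 genes tested. Scaled on endothelial genes, 0 of the 10 had one, against 7116 of the 18727 genes tested. Over all genes in the main setting 1065 were under that level by edgeR. The number past the adjusted threshold was 60 by DESeq2 and 0 by limma-voom, with 0 of the 10 genes among them. At an adjusted threshold of 0.05 the edgeR test recovered 3% of simulated 2-fold and 43% of simulated 4-fold changes in this design. The 10 genes were chosen with earlier results of these data known, and they vary together, so these counts describe the list and do not test it.

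**Figure D2:**
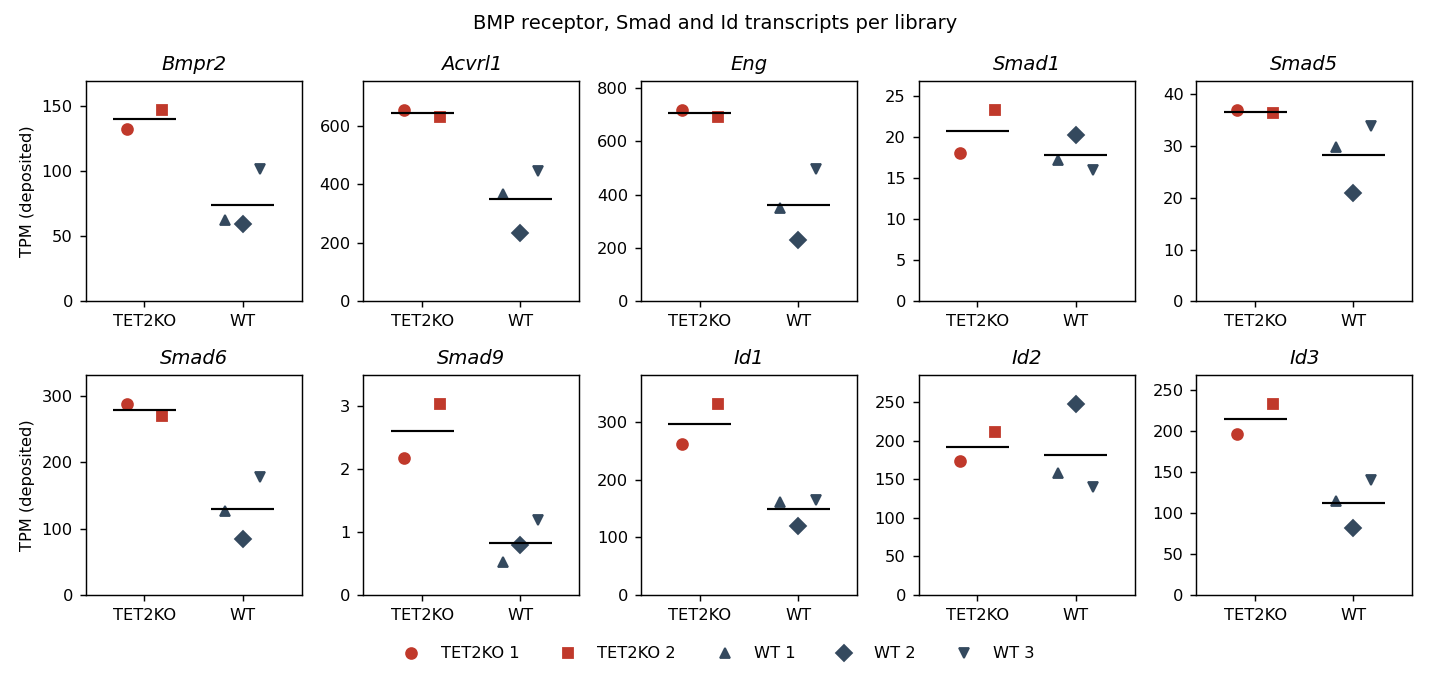
Deposited TPM (vertical axis, starting at 0) of the 10 genes in each library, with TET2KO left of WT; each symbol is a library and the line is the group mean. Both TET2KO points lie above all WT points for 8 genes on this scale, Smad5 included, and overlap with them for Smad1 and Id2. The share of all genes that do so was counted in TMM-scaled CPM only (12.4%), not in TPM.

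Eng, Acvrl1 and Bmpr2, the receptor genes, were all higher in the TET2KO libraries under TMM scaling. Scaled on endothelial genes, the groups overlapped for each of them. Their log2 fold changes were then 0.03 for Eng, -0.08 for Acvrl1 and -0.08 for Bmpr2. Acvrl1 encodes the endothelial type 1 receptor ALK1 (ENSMUSG00000000530, chromosome 15, 101128522 to 101145336, plus strand, GRCm38). It stood at 655 and 632 TPM (a level corrected for gene length and library size) in TET2KO, against 367, 234 and 445 TPM in WT. The groups did not overlap, and among the WT libraries replicate 3 was the nearest to TET2KO. The log2 fold change was 0.70 (SE 0.23, edgeR adjusted p = 0.796).

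Eng encodes endoglin, a co-receptor that presents BMP9 to ALK1 (ENSMUSG00000026814, chromosome 2, 32646595 to 32682669, plus strand). Its level was 718 and 692 TPM in TET2KO, against 351, 231 and 496 TPM in WT, again without overlap. With a log2 fold change of 0.79 (SE 0.27, edgeR adjusted p = 0.813), it was 1.73-fold higher in TET2KO. In the 5 libraries Eng and Acvrl1 kept nearly the same level relative to each other: the ratio of their TPM was 1.10 and 1.09 in TET2KO, against 0.957, 0.988 and 1.11 in WT. Exons of Eng share 121 bases with Fpgs on the opposite strand, and those of Acvrl1 share 127 bases with the antisense gene Gm16031. Without a stated strand setting their reads cannot be told apart there, though Gm16031 had 375 counts in all against 90497 for Acvrl1, and Fpgs had 5126 against 91562 for Eng.

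Bmpr2 encodes the type 2 receptor (ENSMUSG00000067336, chromosome 1, 59763400 to 59879014, plus strand). It was at 132 and 147 TPM in TET2KO, against 62.1, 59.0 and 101 TPM in WT. Per length it was the lowest of the 3 receptor genes in every library: the TPM of Acvrl1 was 4.97 and 4.31 times that of Bmpr2 in TET2KO, and 5.92, 3.97 and 4.39 times in WT. Its log2 fold change was 0.71 (SE 0.27, edgeR adjusted p = 0.856). Without WT replicate 3 the log2 fold changes were 0.96 for Bmpr2, 0.89 for Acvrl1 and 1.07 for Eng, and without WT replicate 2 they were 0.70, 0.60 and 0.67, with edgeR adjusted p-values between 0.449 and 0.513.

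Under TMM scaling the log2 fold changes of the Smad genes ran from -0.03 for Smad1 to 1.42 for Smad9. Smad6, which blocks the type 1 receptors and is itself switched on by BMP signals, had the largest log2 fold change among the well expressed Smads (ENSMUSG00000036867, chromosome 9, 63953076 to 64022059, minus strand). It was at 288 and 269 TPM in TET2KO, against 126, 83.8 and 178 TPM in WT. The groups did not overlap, and the log2 fold change was 0.93 (SE 0.25, edgeR adjusted p = 0.778). It was 1.203 without WT replicate 3 and 0.81 without WT replicate 2.

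Smad1 and Smad5, the main carriers of the BMP signal, showed no such separation on the TMM scale. Smad1 (ENSMUSG00000031681, chromosome 8, 79338395 to 79399518, minus strand) was at 18.05 and 23.3 TPM in TET2KO, against 17.2, 20.2 and 16.1 TPM in WT. Its log2 fold change was -0.03, with a 95% interval from -0.72 to 0.66 that leaves room for a difference either way, and its sign changed with the scaling. It was -0.12 without WT replicate 3 and 0.26 without WT replicate 2. Smad5 (ENSMUSG00000021540, chromosome 13, 56703010 to 56742377, plus strand) was at 37.0 and 36.3 TPM in TET2KO, against 29.8, 20.98 and 33.9 TPM in WT. The Smad5 log2 fold change was 0.19 (95% interval -0.22 to 0.59), and it was 0.32 without WT replicate 3 and 0.15 without WT replicate 2. In TPM the groups did not overlap for Smad5, but in TMM-scaled CPM they did, with 75.2 and 73.9 CPM in TET2KO and 63.1, 59.1 and 74.1 CPM in WT. Read as proportions, Smad6 TPM was 7.78 and 7.42 times that of Smad5 in TET2KO, against 4.23, 3.99 and 5.24 times in WT. The groups did not overlap. This ratio does not depend on how libraries are scaled, but it can depend on the mix of cells, which was not tested. Scaled on endothelial genes, the log2 fold change was 0.16 for Smad6 and -0.61 for Smad5, against a median of -0.89 over all genes tested. The share of all gene pairs whose ratio separates the groups was not counted.

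Smad9, the third carrier of the BMP signal, was scarce in all libraries (ENSMUSG00000027796, chromosome 3, 54755582 to 54801257, plus strand). It had 106 and 143 counts in TET2KO, against 23, 48 and 59 counts in WT, or 2.18 and 3.04 TPM in TET2KO, against 0.525, 0.796 and 1.19 TPM in WT. Its log2 fold change of 1.42 (SE 0.43, edgeR adjusted p = 0.778) was the largest of the 10 genes and had the widest error. The 95% interval ran from 0.34 to 2.49. Without WT replicate 3 the value was 1.68, and without WT replicate 2 it was 1.53.

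Promoter sequences are shown for the Smad and receptor genes whose upstream window holds no annotated exon and whose values set the range above: Eng and Smad6, Smad9 with the largest fold, and Smad5 with overlapping groups. Each is the stretch of 250 bases before a RefSeq start (GRCm38.p6), 5′ to 3′ on the gene's strand, and capitals mark CG dinucleotides, where most 5-methylcytosine of mammalian DNA lies. The windows are chr2:32646345-32646594 (plus strand) for Eng, chr9:64022060-64022309 (minus strand) for Smad6, chr3:54755332-54755581 (plus strand) for Smad9 and chr13:56702760-56703009 (plus strand) for Smad5, the first of 3 starts listed for it.
Eng promoter: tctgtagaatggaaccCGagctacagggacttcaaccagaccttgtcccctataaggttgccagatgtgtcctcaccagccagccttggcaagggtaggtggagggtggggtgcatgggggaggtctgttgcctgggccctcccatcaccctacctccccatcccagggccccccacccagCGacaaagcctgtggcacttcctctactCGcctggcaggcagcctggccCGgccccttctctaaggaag
Smad6 promoter: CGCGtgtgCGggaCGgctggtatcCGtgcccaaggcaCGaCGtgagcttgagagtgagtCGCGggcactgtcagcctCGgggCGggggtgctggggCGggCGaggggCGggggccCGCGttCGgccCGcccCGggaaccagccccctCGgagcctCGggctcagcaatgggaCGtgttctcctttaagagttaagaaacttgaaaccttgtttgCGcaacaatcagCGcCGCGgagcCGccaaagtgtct
Smad9 promoter: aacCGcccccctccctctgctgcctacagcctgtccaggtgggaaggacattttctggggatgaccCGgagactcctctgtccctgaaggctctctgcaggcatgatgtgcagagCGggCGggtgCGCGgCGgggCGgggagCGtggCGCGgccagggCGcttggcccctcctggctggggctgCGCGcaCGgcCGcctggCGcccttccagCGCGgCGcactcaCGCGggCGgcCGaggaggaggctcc
Smad5 promoter: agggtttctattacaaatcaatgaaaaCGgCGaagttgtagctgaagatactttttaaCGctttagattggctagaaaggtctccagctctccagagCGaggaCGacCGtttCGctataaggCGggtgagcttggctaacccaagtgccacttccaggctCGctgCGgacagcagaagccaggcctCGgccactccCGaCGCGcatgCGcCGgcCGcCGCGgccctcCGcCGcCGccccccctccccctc
Eng and Smad6, with like fold changes, were far apart in CG number: the Eng window held 4 CG dinucleotides and that of Smad6 held 27. The windows of Smad9 and Smad5 held 24 and 22, and the median over 32851 RefSeq promoter windows of the same length was 6. GGCGCC, a GC-rich element bound by Smad1 and Smad5 (a palindrome, the same on both strands), was found once in the Smad9 window and in no other of the 4, and 9.59% of all windows held it. Among the windows not shown, those of Bmpr2, Id2 and another Smad5 start held GGCGCC too. CAGAC, a shorter Smad-binding sequence, was searched on both strands; it can share 1 letter with GGCGCC, but no window shown held both. CAGAC was found 2 times in the Eng window and in no other of the 4, with 42.2% of all windows holding it. Among the windows not shown, those of Id3 and a further Smad5 start held CAGAC too. DNA methylation was not measured in these libraries. Of the 10 genes, 8 matched the promoter table; Acvrl1 and Id1 did not.

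**Figure D3:**
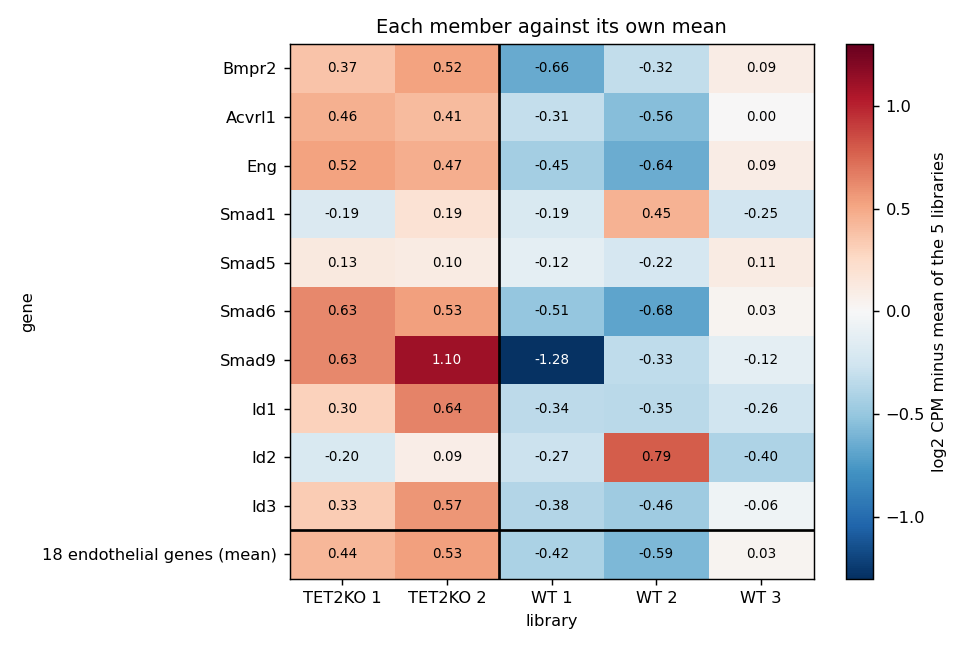
Each cell gives a gene's log2 CPM in a library minus its mean over the 5 libraries, with genes in rows, libraries in columns and TET2KO left of WT; the bottom row is the mean over 18 endothelial marker genes. Bmpr2, Acvrl1, Eng and Smad6 are near 0 in WT replicate 3 as is the endothelial mean, at 0.03, whereas Id2 and Smad1 are highest in WT replicate 2.

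The Id genes encode helix-loop-helix proteins without a DNA-binding region, which hold bHLH transcription factors away from DNA. Id1, the classic BMP target, was at 263 and 332 TPM in TET2KO, against 161, 121 and 166 TPM in WT (ENSMUSG00000042745, chromosome 2, 152736251 to 152737410, plus strand). On the TMM scale its WT libraries were the tightest of the 10 genes, at 53.4, 53.1 and 56.6 CPM, with 83.4 and 106 CPM in TET2KO. The log2 fold change was 0.80 (SE 0.16), with an unadjusted p of 0.00339 and an adjusted p of 0.778 by edgeR. DESeq2 gave Id1 an adjusted p of 0.111, the lowest of the 10 genes by that tool, within a range of 0.111 to 1.00 for Id1 over the settings tried.

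Id3, the other Id gene that BMP switches on strongly in endothelium, was at 197 and 233 TPM in TET2KO, against 115, 82.3 and 140 TPM in WT (ENSMUSG00000007872, chromosome 4, 136143497 to 136145755, plus strand). The groups did not overlap, and the log2 fold change was 0.75 (SE 0.19, edgeR adjusted p = 0.778). Leaving out WT replicate 3 gave 0.86 for Id1 and 0.91 for Id3, and leaving out WT replicate 2 gave 0.81 and 0.69. The ratio of Id1 to Id3 in TPM was 1.33 and 1.42 in TET2KO, within the 1.40, 1.47 and 1.18 of WT.

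Id2, which lymphocytes and myeloid cells also use, went its own way. It was at 173 and 212 TPM in TET2KO, against 158, 248 and 140 TPM in WT (ENSMUSG00000020644, chromosome 12, 25093799 to 25097140, minus strand). The top value belonged to WT replicate 2, the library with the most macrophage transcripts, where Id2 had 3537 counts, against 1633 and 1652 in the other WT libraries. Its log2 fold change was -0.19 (SE 0.40, edgeR adjusted p = 0.930) over all libraries and 0.32 (edgeR adjusted p = 0.534) without WT replicate 2. Without WT replicate 3 it was -0.38. Adjusted p-values for Id2 ran from 0.0376 to 1.00 over the settings tried, the lowest under the endothelial scaling without WT replicate 3. The ratio of Id1 to Id2 in TPM separated the groups, at 1.52 and 1.57 in TET2KO, against 1.02, 0.487 and 1.18 in WT. How many of all gene pairs do so was not counted, and the part of the cell mix in it was not tested.

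By level per length, only the lower part of the order of the 10 genes was the same in every library. Bmpr2, Smad5, Smad1 and Smad9 were the seventh to the last in every library. Eng and Acvrl1 led in both TET2KO libraries and in WT replicates 1 and 3, while Id2 led in WT replicate 2. Between them stood Id1, Smad6, Id2 and Id3, whose places changed from library to library. In TET2KO, Eng averaged 705 ± 18.3 TPM and Acvrl1 644 ± 16.3 TPM, and in WT they averaged 360 ± 133 and 349 ± 107 TPM (SD between libraries, n = 2 and 3). Within libraries Eng was 1.10 and 1.09 times Acvrl1 in TET2KO, against 0.957, 0.988 and 1.11 times in WT, with overlap. Id1 averaged 297 ± 49.1 TPM and Smad6 279 ± 13.2 TPM in TET2KO, and 149 ± 24.7 and 129 ± 47.2 TPM in WT. The order of Id1 and Smad6 changed between libraries in both groups. Id3 and Id2 were neighbours in TET2KO, at 215 ± 25.9 and 192 ± 27.3 TPM, while in WT Id2 averaged 182 ± 57.7 TPM and Id3 113 ± 29.0 TPM. Within libraries Id3 was 1.14 and 1.10 times Id2 in TET2KO, against 0.731, 0.332 and 0.998 times in WT. Bmpr2 followed at 139 ± 10.5 TPM in TET2KO and 74.2 ± 23.7 TPM in WT, well above Smad5 at 36.7 ± 0.510 TPM in TET2KO and 28.2 ± 6.61 TPM in WT.

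The summed endothelial markers were lower in every WT library than in both TET2KO libraries. In these bulk isolates, fewer endothelial cells, less RNA per cell and a lower level of endothelial genes within cells in WT cannot be told apart. All 20 endothelial markers had a log2 fold change above 0 under TMM, with a median of 0.75, close to the 0.73 of the 10 genes. The 10 genes were therefore also set against the summed counts of 18 endothelial markers in the same library. Per 1000 endothelial marker counts, Acvrl1 had 90.6 and 83.7 counts in TET2KO, against 97.6, 93.0 and 86.0 in WT. Eng had 94.2 and 86.9 in TET2KO, against 88.6, 87.2 and 90.9 in WT. For Bmpr2 the values were 76.9 and 81.9 in TET2KO, against 69.5, 98.9 and 82.6 in WT. The separation seen above was gone for all 3 receptor genes, and likewise for Id1, with 9.87 and 12.0 in TET2KO, against 11.6, 13.0 and 8.70 in WT.

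Scaled this way, the log2 fold changes were -0.08 for Bmpr2, -0.08 for Acvrl1, 0.03 for Eng, -0.03 for Id1 and -0.05 for Id3, each with a 95% interval that spans 0. These intervals, such as -0.65 to 0.70 for Eng, leave room for a difference either way. Smad6 alone kept both TET2KO libraries above all WT libraries, at 29.9 and 26.8 per 1000 in TET2KO, against 25.1, 25.004 and 25.8 in WT, which 0.902% of all genes did, and its log2 fold change was 0.16 (edgeR adjusted p = 0.661). Smad9 was at 0.63 (SE 0.46), with 0.92 when WT replicate 2 was left out, 0.37 when WT replicate 1 was and 0.40 when TET2KO replicate 2 was. In both TET2KO libraries Smad1 and Smad5 lay below all WT libraries, as 57.3% of all genes did on this scale. Smad5 had 8.91 and 8.36 per 1000 in TET2KO, against 13.8, 14.5 and 11.4 in WT, and Smad1 had 3.66 and 4.54 in TET2KO, against 6.70, 11.8 and 4.55 in WT. The log2 fold changes of -0.61 for Smad5, -0.91 for Smad1 and -1.10 for Id2 stand beside a median of -0.89 over all genes tested, since this scaling moved that median by -0.81. No gene passed the correction (0%); without WT replicate 3, Smad1, Smad5 and Id2 passed (edgeR adjusted p between 0.0346 and 0.0437), all lower, at -1.17, -0.71 and -1.43, together with 50% of all genes called lower and 0.0271% called higher. Without WT replicate 2, Smad1 was at -0.46 and Id2 at -0.41.

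**Figure D4:**
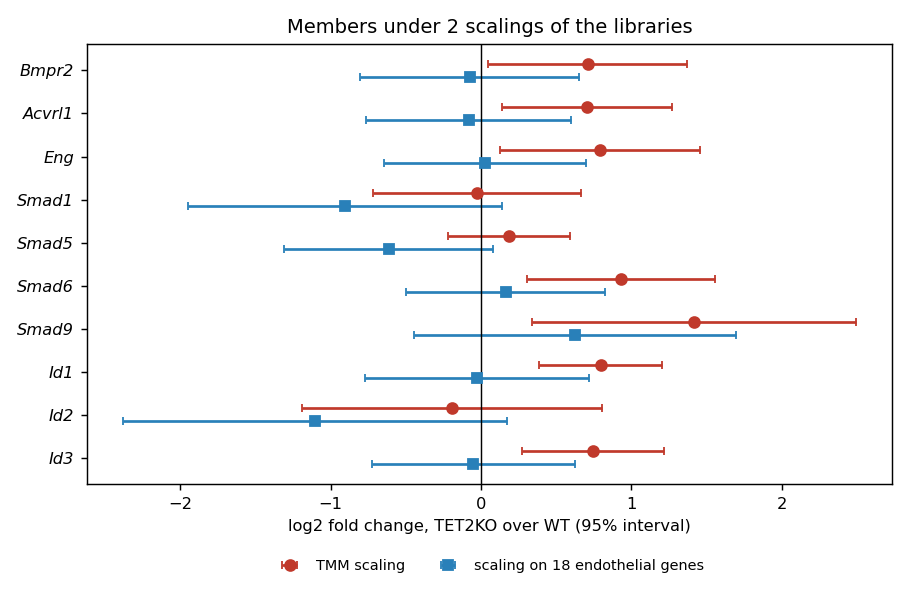
Log2 fold change of TET2KO over WT (horizontal axis) with its 95% interval for each of the 10 genes (vertical axis), under TMM scaling (circles) and under scaling on the summed counts of 18 endothelial genes (squares). Bmpr2, Acvrl1, Eng, Id1 and Id3 lie between 0.70 and 0.80 under TMM and between -0.08 and 0.03 under the endothelial scaling.

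The profiles of Bmpr2 and Id1 over the 5 libraries were compared with all genes at a mean log2 CPM of at least 3, by the root-mean-square difference of centred log2 CPM. Nearest to Bmpr2 were Adgra3 (0.055), Scube1 (0.058), Shroom4 (0.060) and Ptprb (0.071), the last an endothelial tyrosine phosphatase that is one of the endothelial markers used here. For Id1 the nearest were Fam135a (0.049), Magi1 (0.052, ENSMUSG00000045095), Map1b (0.059) and Cdc42bpa (0.065). Among the 10 genes, Id3 was nearest to both Bmpr2 (0.156) and Id1 (0.108), and Id2 was the farthest from both, at 0.653 and 0.612. With 5 libraries and 10151 genes compared, such likeness is a description only.

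The rest of the pathway is given under TMM scaling; scaled on endothelial genes the list medians were 0.049 for ligands, -0.48 for other receptors, -0.16 for antagonists and modulators, -0.86 for intracellular regulators and -0.12 for other targets, against -0.89 for all genes tested. Ligand transcripts within the isolates were led by Bmp6. It was at 137 ± 2.48 CPM in TET2KO and 84.9 ± 31.3 CPM in WT (SD, n = 2 and 3), and the log2 fold change was 0.69 (SE 0.31). Bmp4 was at 12.1 ± 7.36 CPM in TET2KO and 6.12 ± 0.586 CPM in WT, with TET2KO replicate 2 at 17.3 CPM and replicate 1 at 6.92 CPM. Bmp3 and Bmp5 had at most 47 counts in any library. Gdf2 and Bmp10, which encode the circulating ligands BMP9 and BMP10 and are made mainly in liver and heart, had 2 to 8 counts per library in TET2KO and 1 to 4 in WT and were not tested. Of 13 ligand genes listed, 7 were tested, 0 passed the correction in either direction, 6 were above 0 and the median log2 fold change was 0.82.

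Among the other receptors, 10 of 12 listed genes were tested, 0 passed, 9 were above 0 and the median was 0.35, which was 0.077 without TET2KO replicate 2. Neo1, which encodes the receptor neogenin for BMP co-receptors of the RGM family, was at 4.88 ± 0.321 CPM in TET2KO and 2.23 ± 0.487 CPM in WT (log2 fold change 1.13, SE 0.30). Tgfbr3, the co-receptor betaglycan, was at 67.8 ± 3.40 CPM in TET2KO and 49.9 ± 14.8 CPM in WT. Acvr2b, an activin type 2 receptor, was at 7.52 ± 0.932 CPM in TET2KO and 5.16 ± 1.52 CPM in WT, with overlapping groups. Rgma was near 1 CPM, at 1.304 ± 0.990 CPM in TET2KO and 0.744 ± 0.221 CPM in WT.

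Secreted antagonists and modulators had 14 of 20 genes tested, 0 past the correction, 12 above 0 and a median of 0.58. Bmp1, a metalloprotease that cleaves procollagen and the antagonist chordin, was at 32.2 ± 1.05 CPM in TET2KO and 17.95 ± 2.33 CPM in WT (log2 fold change 0.84, SE 0.18, edgeR adjusted p = 0.778). Mgp, the matrix Gla protein that binds BMP, was at 26.8 ± 9.65 CPM in TET2KO and 15.8 ± 3.50 CPM in WT. Chrdl1, a chordin-like antagonist, had at most 21 counts in any library.

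Intracellular regulators had a median near that of all genes. All 16 were tested, 0 passed the correction, 7 were above 0 and 9 below, and the median was -0.03. Fkbp1a, whose protein FKBP12 holds type 1 receptors inactive, was at 203 ± 3.07 CPM in TET2KO and 151 ± 8.66 CPM in WT (log2 fold change 0.42, SE 0.15). Smurf2, a ubiquitin ligase of Smads and their receptors, was at 176 ± 6.04 CPM in TET2KO and 139 ± 3.36 CPM in WT. Zfp423, a Smad cofactor, was at 2.60 ± 0.0883 CPM in TET2KO and 1.89 ± 0.513 CPM in WT. Usp15, a deubiquitinase of Smads, lay lower in TET2KO on the TMM scale, at 84.7 ± 2.62 CPM in TET2KO and 96.6 ± 3.11 CPM in WT. Both TET2KO libraries were below all WT libraries there, as for 12.4% of all genes tested. The log2 fold change of Usp15 was -0.19 (SE 0.14). In TPM its groups overlapped, at 95.8 ± 3.06 TPM in TET2KO and 94.9 ± 12.7 TPM in WT. Smad4, the shared partner of the signal-carrying Smads, chosen after its values were seen, had a log2 fold change of -0.01 (SE 0.19).

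Other genes known to respond to BMP9 or BMP signals in endothelium had 13 of 14 tested, 0 past the edgeR correction, 12 above 0 and a median of 0.64. Hey1, a transcription factor shared by BMP and Notch signalling, was at 79.3 and 82.2 CPM in TET2KO, against 37.8, 32.7 and 44.1 CPM in WT. Its log2 fold change was 1.08 (SE 0.18, edgeR adjusted p = 0.778, limma-voom adjusted p = 0.734). Hey1 was the only gene of all these lists that DESeq2 called (DESeq2 adjusted p = 0.0115). By that tool 0.34% of all genes with an adjusted p were called higher. On simulated counts of this design DESeq2 made 59 false calls and edgeR 1, while DESeq2 recovered 16% of 2-fold and 86% of 4-fold changes. As neither edgeR nor limma-voom called Hey1, this call is weak. Tmem100, which depends on ALK1 in lung endothelium, was at 332 and 401 CPM in TET2KO, against 218, 185 and 223 CPM in WT. Atoh8, a further target of ALK1, was at 3.72 and 3.70 CPM in TET2KO, against 1.89, 1.52 and 1.87 CPM in WT. Dll4, a Notch ligand of arteries, was at 151 ± 6.98 CPM in TET2KO and 85.4 ± 19.96 CPM in WT. Smad7, the other inhibitory Smad, chosen after its values were seen, overlapped between the groups, with 7741 and 6099 counts in TET2KO, against 5043, 3073 and 7817 in WT.

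**Figure D5:**
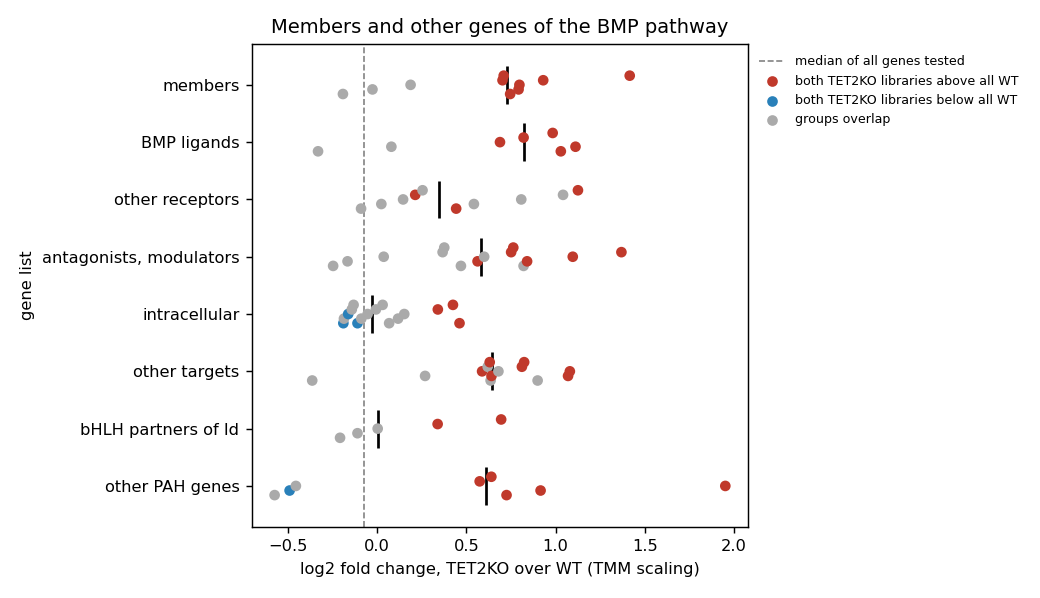
Each point is a tested gene, placed by its log2 fold change of TET2KO over WT under TMM scaling (horizontal axis) in its list (rows); black bars are list medians, the dashed line is the median of all genes tested at -0.08, and colour shows whether the groups overlap. The medians lie at 0.73 for the 10 genes and -0.03 for the intracellular regulators.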

How the data were processed

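Tools named in the submitters' processing notes, without roles, were STAR 2.5.2b, Trimmomatic 0.36, DESeq2 with no version and featureCounts (Subread 1.5.2), with build GRCm38. The strand setting is not given in the sources used here. The authors deposited raw read counts per gene and TPM values, length-corrected levels that sum to the same total in each library. Their comparison table holds, per the file headers, log2 fold changes and p-values, and a normalized signal per library, the counts divided by a size factor.

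The main test was the quasi-likelihood test of edgeR 4.0.16 (TMM, filterByExpr, genotype as the only term, Benjamini-Hochberg over 18727 genes, threshold 0.05) in R 4.3.3. The SE of a fold change is its size over the root of F. Alternatives were DESeq2 1.42.0, limma-voom (3.58.1), limma on TPM with a pseudocount of 1 or 0.1, RLE, upper quartile and no factors, scaling on endothelial genes, 2 other filters, each library left out and the replicate number as a block. On simulated counts of 18289 genes, 100 of them raised or lowered 2-fold and another 100 by 4-fold, edgeR made 1 false call and DESeq2 59. CPM are TMM-scaled unless stated; log2 CPM used a prior count of 2. With 27346804 to 35440257 counts per library, counting error was small except for genes of low counts such as Smad9. Coordinates are from GENCODE M21. All libraries differed from each other by more than counting noise.

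The 10 genes and all lists were chosen with earlier results of these data known. Named genes were the 10, Tet2, the 4 smallest p of each other pathway list, the nearest profiles and marker genes; exceptions are stated, and 1 gene the rule names is not reported here.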

Additional observations from a re-analysis of the deposited data

How the results depend on the processing

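The main count of genes past the threshold, 0, was 60 with DESeq2, and the count in the other pathway lists was 1 with DESeq2 instead of 0; each other planned setting gave 0 for both, and for the 10 genes all gave 0, with adjusted p-values from 0.111 to 1.00. Genes with an unadjusted p under 0.05 numbered 1065, 7116 under the endothelial scaling, 1754 on unfiltered log2(TPM + 1), and, with TET2KO replicates 1 and 2 left out in turn, 645 and then 265, where the lone TET2KO library is assumed to vary like the WT ones. They numbered 696 when WT replicate 1 was left out and 1864 when WT replicate 2 was. With a library left out the median of the 10 genes ran from 0.62 to 0.90. Smad5, at 0.19, was 0.32 without WT replicate 3. Without WT replicate 3 the medians were 1.00 for ligands, 0.39 for other receptors, 0.79 for antagonists and modulators, -0.0030 for intracellular regulators and 0.96 for other targets; without WT replicate 2 they were 0.59, 0.47, 0.53, 0.068 and 0.72. Under the endothelial scaling 3 of the 10 genes were above 0 instead of 8, 1 instead of 7 lay above all WT libraries, and the median was -0.063 instead of 0.73; Bmpr2 turned to -0.075, Acvrl1 to -0.081, Smad5 to -0.61, Id1 to -0.027 and Id3 to -0.052. By construction this scaling sets the summed counts of 18 endothelial genes, none of them among the 10, equal between libraries. It moved the median of all genes tested by -0.81. Why each of the 10 genes came to lie where it did was not tested. The median of the 10 genes was 0.95 on log2(TPM + 1), with or without a filter, and 0.96 on log2(TPM + 0.1), where the median of all genes was 0.13 on log2(TPM + 1) and 0.06 with library totals, against -0.08 under TMM; the cause was not tested.

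Smad1 and Id2 did not hold a direction. Smad1, at -0.03, was 0.077 with upper quartile factors, 0.14 with library totals, 0.020 without a filter, 0.20 on log2(TPM + 1) and 0.21 on log2(TPM + 0.1), -0.91 under the endothelial scaling, and -0.22 to 0.26 with a library left out. Id2, at -0.19, was 0.00179 with library totals, 0.12 on both TPM scales, -1.10 under the endothelial scaling, and -0.38 to 0.32 with a library left out. Under the endothelial scaling, with a library left out (chosen after seeing the data), Bmpr2 ran from -0.19 to 0.062, Eng from -0.032 to 0.083, Id1 from -0.18 to 0.10 and Id3 from -0.15 to 0.037. So scaled, Smad1 ran from -1.17 to -0.46, Id2 from -1.43 to -0.41, Smad5 from -0.71 to -0.54 and Smad9 from 0.37 to 0.92.

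Replicate numbers were shared by both groups, and the deviations of same-numbered libraries correlated at 0.22 and 0.49. Those of TET2KO replicate 1 and WT replicate 3, which share no number, correlated at 0.45. With 2 TET2KO libraries, the values of one are those of the other with the sign turned. The labels tie the numbers to no litter or day and only 2 pairs exist, so same-numbered libraries share a number only. With the replicate block 0 genes were called, 2914 had an unadjusted edgeR p under 0.05 and the median of the 10 genes was 0.87. No TET2KO library shares the number of WT replicate 3, so under this block WT replicate 3 adds nothing to the genotype difference. The block is therefore no separate check from leaving out WT replicate 3, where the median was 0.90. Low depth limits Smad9, with 23 to 143 counts.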

Other observations

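Id proteins bind bHLH factors. Of the 5 bHLH genes listed, all tested, 0 passed the edgeR correction, 3 were above 0 and the median log2 fold change was 0.00294, which was -0.77 when scaled on endothelial genes, against -0.89 for all genes tested. With a library left out that median ran from -0.20 to 0.19. Tal1, a bHLH factor of blood and endothelium, was at 33.6 ± 3.99 CPM in TET2KO and 20.8 ± 4.21 CPM in WT (SD, n = 2 and 3), without overlap. Tcf4, an E protein, was at 296 ± 14.9 CPM in TET2KO and 234 ± 61.3 CPM in WT, also without overlap. The other E protein genes overlapped: Tcf3 was at 129 ± 13.9 CPM in TET2KO and 149 ± 41.3 CPM in WT, and Tcf12 at 102 ± 5.61 CPM in TET2KO and 110 ± 18.1 CPM in WT.

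Other genes linked to human pulmonary arterial hypertension split by direction. Of 8 listed and tested, 0 passed, 5 were above 0 and the median was 0.61, which turned to -0.20 when scaled on endothelial genes. Sox17, an endothelial transcription factor, was at 68.4 and 69.7 CPM in TET2KO, against 29.3, 31.8 and 48.6 CPM in WT. Aqp1, a water channel of capillary endothelium, was at 804 ± 111 CPM in TET2KO and 516 ± 90.2 CPM in WT, and Cav1, of caveolae, at 517 ± 52.6 CPM in TET2KO and 347 ± 50.9 CPM in WT. Tbx4, a lung mesenchyme transcription factor, had 64 and 56 counts in TET2KO, against 10, 7 and 26 in WT, and its log2 fold change was 1.95 (SE 0.56, edgeR adjusted p = 0.778). Below 0 were Eif2ak4, Kcnk3 and Atp13a3, chosen after their values were seen; Eif2ak4, the stress kinase GCN2, had a log2 fold change of -0.49 (SE 0.28).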
